A study of Rattus norvegicus with 6 samples.

Results

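The 10 genes described here encode enzymes that modify and cross-link collagen: the lysyl oxidase Lox and its relatives Loxl1, Loxl2, Loxl3 and Loxl4, the lysyl hydroxylases Plod1 and Plod2, and the prolyl 4-hydroxylase alpha subunits P4ha1, P4ha2 and P4ha3. They were taken by gene symbol from an annotated table of 32623 genes, and each symbol had 1 row. Rat liver RNA was sequenced in 3 libraries of a group that underwent transarterial embolization (TAE), a procedure in which the arteries feeding a liver tumour are blocked, and in 3 libraries of an untreated control group labelled HCC, for hepatocellular carcinoma. The labels call the replicates biosamples and give no strain, age, tumour model, embolic agent or time after embolization, so the spread behind each p-value is that between libraries and may be technical. The titles place both groups in a study of hepatocellular carcinoma, and the labelled tissue is liver in all 6 libraries. Hepatocyte transcripts were abundant in every library, with Alb, the plasma albumin gene, at 6948, 5318 and 15304 FPKM in TAE replicates 1 to 3 and 12096, 14853 and 15868 FPKM in HCC replicates 1 to 3. FPKM is the read count scaled to exon length and library total.

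Collagen chains are hydroxylated in the endoplasmic reticulum before they fold. Prolyl 4-hydroxylase is a tetramer of alpha subunits, which carry the active site, and of the beta subunit P4hb, and its product 4-hydroxyproline stabilises the triple helix. Lysyl hydroxylases act on lysines of the helix or, for the PLOD2 enzyme, mainly of the telopeptides at the chain ends, which sets the type of cross-link that can form. Outside the cell, the copper enzymes of the lysyl oxidase family oxidise lysine and hydroxylysine so that collagen fibres, and elastin, become cross-linked. In liver these enzymes are made largely by activated stellate cells and fibroblasts, and P4HA1, P4HA2, PLOD2, LOX and LOXL2 are known targets of hypoxia-inducible factors in human cells.

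The annotated starts of these genes are shown because embolization cuts off blood supply and several members are known hypoxia targets. RefSeq gave a promoter window (250 bases before to 50 bases after the start, build GRCr8) for 8 of the 10 members, and Lox and Loxl2 had none in the table. The letters ACGTG and GCGTG, the core of a hypoxia response element, were searched on both strands, and no matches overlapped each other. Matches numbered 5 in P4ha2, 4 in Plod2, 3 in P4ha1, 1 in Plod1 and 1 in Loxl3, and 0 in Loxl1, Loxl4 and P4ha3. Of 33469 windows of the same length, 41.6% held at least 1 match. The G+C content of the windows was 73.7% in Plod2, 73.3% in P4ha2, 72% in Loxl4, 69% in P4ha3 and 68.3% in P4ha1. It was 63.3% in Plod1, 61.3% in Loxl3 and 61% in Loxl1. Below are the windows of the 3 members with an entry that had the largest log2 change, and of P4ha1 beside P4ha2, with the matched letters in capitals. They lie at chr8:101964068-101964367 (plus strand) for Plod2, chr10:38743644-38743943 (plus strand) for P4ha2, chr8:67612175-67612474 (minus strand) for Loxl1 and chr20:27844796-27845095 (plus strand) for P4ha1. A match is a run of letters and says nothing on whether a factor binds there.
Plod2: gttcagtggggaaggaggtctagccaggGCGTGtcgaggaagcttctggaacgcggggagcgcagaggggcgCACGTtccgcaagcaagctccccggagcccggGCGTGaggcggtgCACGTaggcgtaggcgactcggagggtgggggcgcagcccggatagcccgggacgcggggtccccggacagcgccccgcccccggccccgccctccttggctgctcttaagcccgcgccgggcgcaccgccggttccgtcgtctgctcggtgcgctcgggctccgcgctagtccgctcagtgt
P4ha2: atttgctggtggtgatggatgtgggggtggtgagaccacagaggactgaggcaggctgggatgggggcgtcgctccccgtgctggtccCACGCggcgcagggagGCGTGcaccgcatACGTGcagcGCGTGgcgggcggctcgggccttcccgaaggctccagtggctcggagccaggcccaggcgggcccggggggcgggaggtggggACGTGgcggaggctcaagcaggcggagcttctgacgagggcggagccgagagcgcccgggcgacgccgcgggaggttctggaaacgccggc
Loxl1: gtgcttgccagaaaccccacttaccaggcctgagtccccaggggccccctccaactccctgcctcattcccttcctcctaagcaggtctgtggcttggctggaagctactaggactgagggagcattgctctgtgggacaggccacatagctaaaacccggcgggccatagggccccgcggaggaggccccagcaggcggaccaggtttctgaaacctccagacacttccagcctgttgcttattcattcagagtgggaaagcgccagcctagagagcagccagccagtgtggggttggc
P4ha1: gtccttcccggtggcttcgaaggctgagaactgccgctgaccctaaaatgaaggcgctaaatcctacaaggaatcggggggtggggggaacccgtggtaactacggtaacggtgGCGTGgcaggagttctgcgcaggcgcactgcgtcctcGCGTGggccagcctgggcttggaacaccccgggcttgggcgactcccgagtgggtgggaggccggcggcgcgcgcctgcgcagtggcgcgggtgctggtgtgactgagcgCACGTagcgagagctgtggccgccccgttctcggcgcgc

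Library totals were 14552885 to 16604067 counts in TAE and 13448286 to 14370846 counts in HCC, and the members had 83 to 8652 counts in a library. The TAE libraries differed more among themselves than the HCC libraries. Across genes, which are not independent replicates, Pearson correlations of log2 CPM were 0.973 to 0.988 within TAE and 0.994 to 0.997 within HCC. TAE replicate 2 had correlations of 0.987 to 0.988 with the HCC libraries, 0.988 with TAE replicate 1 and 0.973 with TAE replicate 3. TAE replicate 3 had 0.969 to 0.974 with the HCC libraries. TAE replicate 1 had the highest summed level of 14 stellate cell and fibroblast markers, and TAE replicate 3 the highest summed level of 12 hepatocyte markers within TAE.

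The comparison of TAE with HCC asked how transcripts of collagen-modifying enzymes differed in liver after embolization. Loxl1 rose, and Lox, Loxl2, Plod2 and P4ha2 had higher FPKM in every TAE library than in any HCC library without passing the test. Plod1 was likewise above HCC in every TAE library, but by little. Loxl3, Loxl4, P4ha1 and P4ha3 had overlapping groups. All 10 members passed the filter on low counts, and in edgeR's quasi-likelihood test with Benjamini-Hochberg adjustment over 14499 genes, 1 of them was higher (adjusted p under 0.05) and 0 lower. In the same fit 2.7% of all genes tested were called higher and 0.31% lower. Before adjustment, 6 of the 10 members were higher at a p under 0.05, against 15.9% of all genes. In either direction, 3296 of the 14499 genes tested were under 0.05 before adjustment. FPKM was higher in every TAE library than in any HCC library for 6 of the 10 members, where 21.9% of all genes tested met that criterion. Log2 changes were positive for 9 of 10 members and for 46.9% of all genes, with medians of 0.81 and -0.03. DESeq2 called 4 members higher (Lox, Loxl1, Plod2 and P4ha2), with 10.2% of all genes called higher. Without TAE replicate 2, edgeR called 5 members higher (Lox, Loxl1, Loxl2, Plod2 and P4ha2; background 14.6%), and without TAE replicate 3 it called 2 (Loxl1 and Plod2; background 4.82%). Without TAE replicate 1 or any 1 HCC replicate it called 0 members and 0 genes of the whole table higher. On TMM-scaled CPM the count of members without overlap was also 6 (background 18.5%), but Plod1 and P4ha2 overlapped there and Loxl3 and P4ha3 did not.

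**Figure D1:**
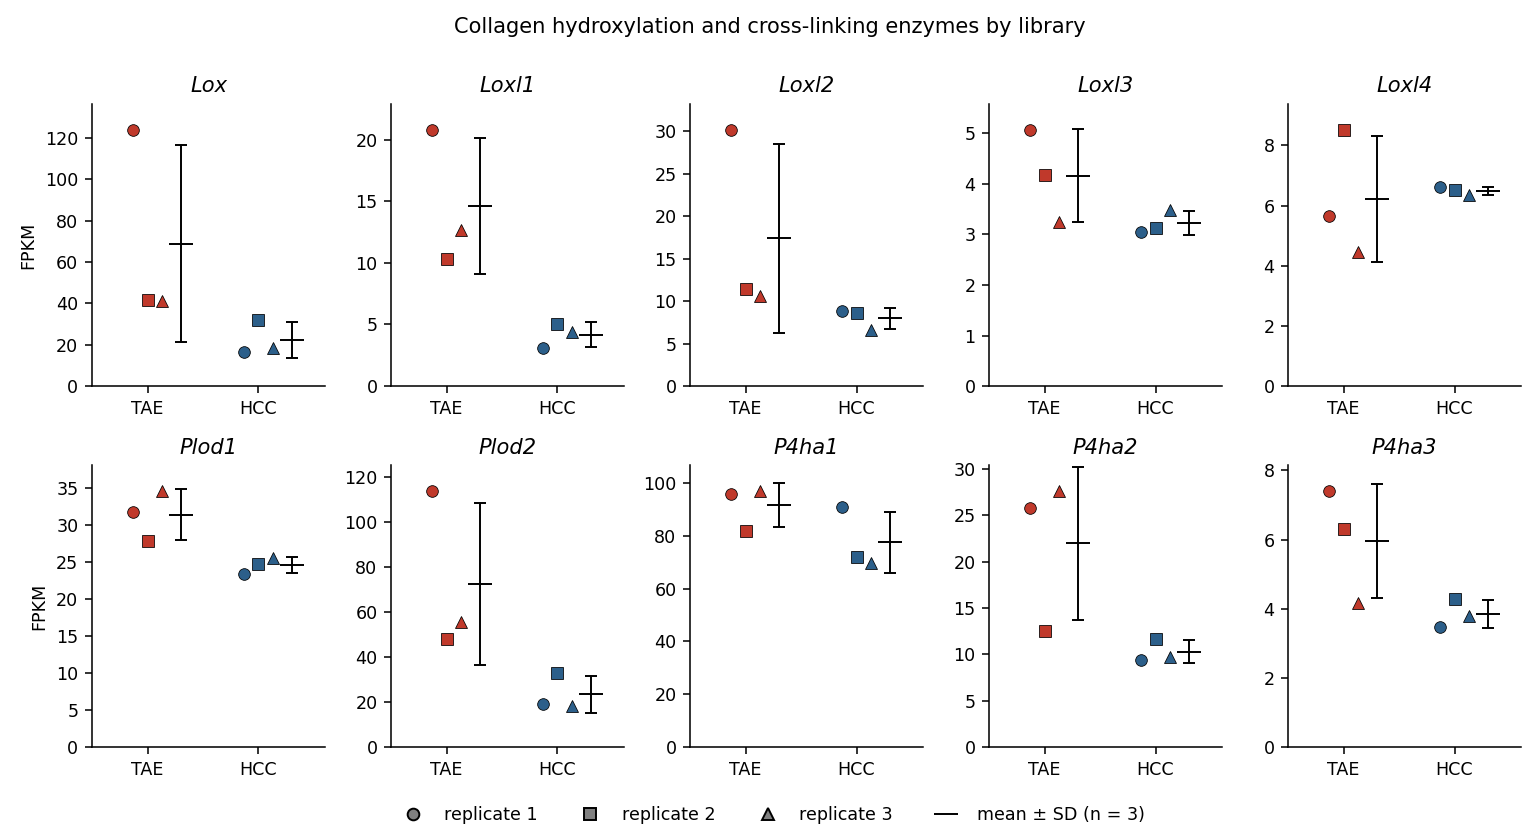
FPKM (linear axis from 0) of each enzyme in the 3 TAE and 3 HCC libraries, with symbols for replicate number and the mean ± SD beside them. Lox, Plod2 and Loxl2 were highest in TAE replicate 1 at 124, 114 and 30.2 FPKM, while P4ha1 overlapped between the groups.

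Among the lysyl oxidases, Lox, the founding member that cross-links fibrillar collagen and elastin, was the most abundant. It had 124, 41.8 and 41 FPKM in TAE replicates 1 to 3, against 16.3, 32 and 18.5 FPKM in HCC replicates 1 to 3. TAE replicate 1 stood 2.99-fold above the mean of the other TAE libraries, and the lowest TAE library was 1.28-fold above the highest HCC library. The log2 change was 1.57 ± 0.48 (SE) with an edgeR adjusted p of 0.119. Without TAE replicate 1 the log2 change was 0.87 (adjusted p = 0.28). Without TAE replicate 2 it passed at 1.86 (edgeR adjusted p = 0.0297). Lox is gene ENSRNOG00000014426 on chromosome 18, from 47500330 to 47577819.

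Loxl1, which is tied to elastic fibre assembly, had 20.8, 10.3 and 12.7 FPKM in TAE replicates 1 to 3, against 3.06, 5.06 and 4.41 FPKM in HCC replicates 1 to 3. Every TAE library was at least 2.03-fold above the highest HCC library, the widest gap of the 10 members. It averaged 14.6 ± 5.52 FPKM in TAE and 4.18 ± 1.02 FPKM in HCC (SD, n = 3 each). The log2 change of 1.76 ± 0.32 was the only one of a member to pass (edgeR adjusted p = 0.0437). The call was lost without TAE replicate 1 (adjusted p = 0.145) and without HCC replicates 1, 2 and 3 (0.19, 0.142 and 0.223), fits in which 0 genes of the whole table were called higher and 11.2% to 12.5% were higher at an unadjusted p under 0.05. Its log2 change stayed between 1.45 and 2.01 with any library left out. Loxl1 is gene ENSRNOG00000008680 on chromosome 8, from 63067300 to 63092009.

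Loxl2, which cross-links collagen IV of basement membranes and fibrillar collagen, had 30.2, 11.4 and 10.6 FPKM in TAE replicates 1 to 3 and 8.82, 8.6 and 6.57 FPKM in HCC replicates 1 to 3. TAE replicate 1 was 2.74-fold above the mean of the other TAE libraries, which lay just above HCC. The log2 change was 1.06 ± 0.40 (edgeR adjusted p = 0.177), 0.44 without TAE replicate 1, and 1.33 without TAE replicate 2, where it passed (adjusted p = 0.0407). Loxl3, a family member with scavenger receptor domains, had 5.07, 4.17 and 3.24 FPKM in TAE replicates 1 to 3 and 3.05, 3.12 and 3.49 FPKM in HCC replicates 1 to 3, so that the groups overlapped. Loxl4, another such member, had 5.65, 8.52 and 4.45 FPKM in TAE replicates 1 to 3, against 6.62, 6.5 and 6.35 FPKM in HCC replicates 1 to 3. The HCC libraries were nearly equal, and TAE libraries lay on both sides of them. The log2 changes of Loxl3 and Loxl4 were 0.31 ± 0.19 and -0.14 ± 0.19 (edgeR adjusted p = 0.363 and 0.66).

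The summed FPKM of the 5 lysyl oxidases was 185, 76.2 and 72.1 in TAE replicates 1 to 3 and 37.8, 55.3 and 39.3 in HCC replicates 1 to 3. Within that sum Loxl1 took 11.2%, 13.5% and 17.7% in TAE replicates 1 to 3, against 8.09%, 9.16% and 11.2% in HCC replicates 1 to 3. Loxl4 took 3.05%, 11.2% and 6.18% in TAE replicates 1 to 3 and 17.5%, 11.8% and 16.2% in HCC replicates 1 to 3. The groups stood apart for both shares, although TAE replicate 1 and HCC replicate 3 nearly met for Loxl1, and TAE replicate 2 and HCC replicate 2 for Loxl4. Lox itself took 54.9% to 66.7% in TAE and 43% to 57.9% in HCC, which overlapped. No test was run on shares, since 3 libraries against 3 cannot go below an exact two-sided permutation p of 0.1.

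Of the lysyl hydroxylases, Plod2 differed more between the groups than Plod1 in its fitted change, a difference that was not itself tested. Plod2, the telopeptide lysyl hydroxylase, had 114, 48.2 and 55.8 FPKM in TAE replicates 1 to 3, against 19.4, 32.9 and 18.3 FPKM in HCC replicates 1 to 3. All TAE libraries were above all HCC libraries, with a gap of 1.47-fold between the nearest pair. The log2 change was 1.57 ± 0.38 and missed the threshold (edgeR adjusted p = 0.0693). It was 1.14 without TAE replicate 1 (adjusted p = 0.184), and it passed without TAE replicate 2 (0.0131) and without TAE replicate 3 (0.048). Plod2 is gene ENSRNOG00000030183 on chromosome 8, from 99977334 to 100059736.

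Plod1, which hydroxylates lysines of the helix, had 31.8, 27.8 and 34.6 FPKM in TAE replicates 1 to 3 and 23.4, 24.8 and 25.5 FPKM in HCC replicates 1 to 3. Its log2 change was 0.32 ± 0.18 (edgeR adjusted p = 0.315). As a result of these levels, Plod2 made up 78.1%, 63.4% and 61.7% of the summed FPKM of Plod1 and Plod2 in TAE replicates 1 to 3, against 45.3%, 57% and 41.7% in HCC replicates 1 to 3. The groups did not overlap for this share, and its mean was 67.8 ± 9.03% in TAE and 48 ± 7.99% in HCC (SD, n = 3 each). Plod2 was the more abundant of the pair in 3 of 3 TAE libraries and in 1 of 3 HCC libraries. Plod3, a related lysyl hydroxylase that also transfers sugars, had a log2 change of -0.21 ± 0.16 (edgeR adjusted p = 0.424).

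**Figure D2:**
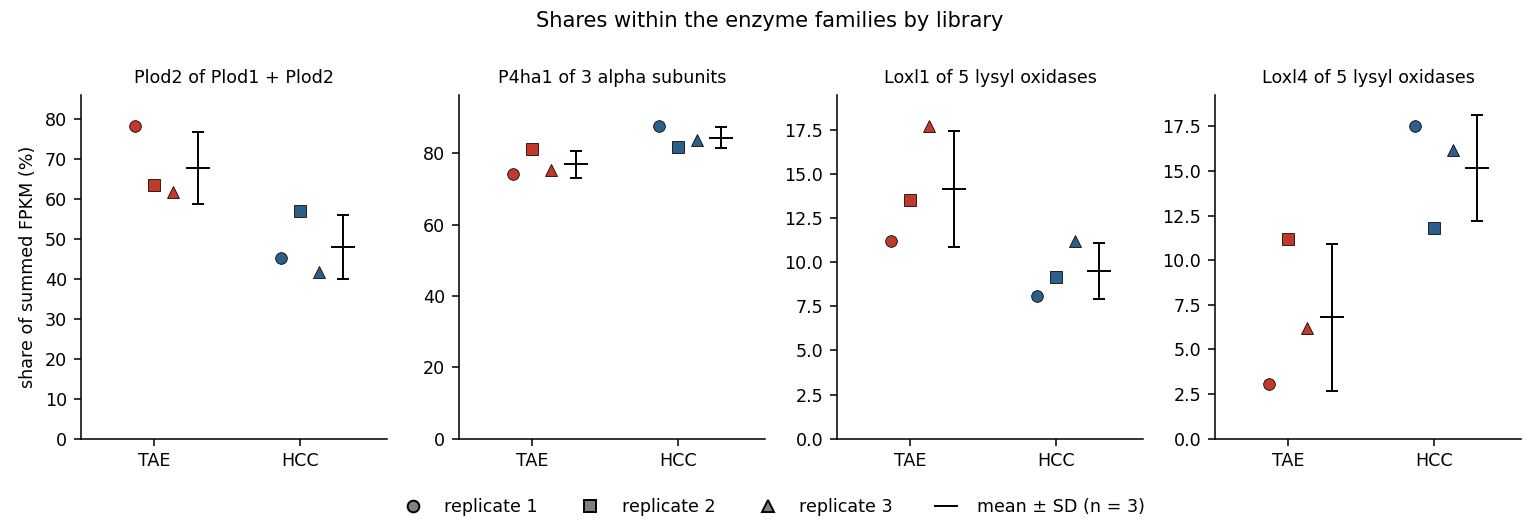
Share of the summed FPKM of its family (percent, axis from 0) taken by Plod2, P4ha1, Loxl1 and Loxl4 in each TAE and HCC library, with mean ± SD. The share of Plod2 was 61.7% or more in TAE and 57% or less in HCC.

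Of the prolyl 4-hydroxylase alpha subunits, P4ha1, the main catalytic subunit in most cells, was the most abundant in every library. It had 95.7, 81.9 and 96.9 FPKM in TAE replicates 1 to 3 and 90.7, 72 and 69.8 FPKM in HCC replicates 1 to 3. HCC replicate 1 lay within the TAE range, and the log2 change was 0.20 ± 0.18 (edgeR adjusted p = 0.509). P4ha2, the isoform linked with cartilage and stromal cells, had 25.8, 12.5 and 27.6 FPKM in TAE replicates 1 to 3, against 9.41, 11.7 and 9.77 FPKM in HCC replicates 1 to 3. TAE replicates 1 and 3 were high and TAE replicate 2 was near HCC replicate 2, whereas Lox and Loxl2 were highest in TAE replicate 1 and nearly level in TAE replicates 2 and 3. The log2 change was 1.08 ± 0.35 (edgeR adjusted p = 0.133), 0.79 without TAE replicate 3 (adjusted p = 0.167) and 1.4 without TAE replicate 2, where it passed (0.00468). P4ha2 is gene ENSRNOG00000033663 on chromosome 10, from 39435227 to 39464188.

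P4ha3, a less abundant alpha subunit, had 7.41, 6.32 and 4.17 FPKM in TAE replicates 1 to 3 and 3.48, 4.3 and 3.79 FPKM in HCC replicates 1 to 3. TAE replicate 3 overlapped HCC, and the log2 change was 0.56 ± 0.23 (edgeR adjusted p = 0.203). P4ha1 made up 74.3%, 81.3% and 75.3% of the 3 alpha subunits in TAE replicates 1 to 3, against 87.6%, 81.8% and 83.7% in HCC replicates 1 to 3. That share was lower in every TAE library, with TAE replicate 2 and HCC replicate 2 almost level. The summed FPKM of the alpha subunits, 129, 101 and 129 in TAE replicates 1 to 3 and 104, 88.1 and 83.4 in HCC replicates 1 to 3, overlapped. P4hb, the shared beta subunit, stood at 588 ± 43.2 FPKM in TAE and 534 ± 20 FPKM in HCC (SD, n = 3 each), a log2 change of 0.10 ± 0.18 (edgeR adjusted p = 0.743). Gene positions in these paragraphs are copied from the deposited table. On chromosome 1 they run to 282724300, past the end of chromosome 1 in mRatBN7.2, which the submitters' processing notes name. Which build they follow is not settled, and they cannot be set beside the GRCr8 windows.

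In order of mean FPKM in TAE, the members ran P4ha1, Plod2, Lox, Plod1, P4ha2, Loxl2, Loxl1, Loxl4, P4ha3 and Loxl3, at 91.5, 72.6, 68.8, 31.4, 21.9, 17.4, 14.6, 6.21, 5.97 and 4.16 FPKM. In HCC the order was P4ha1, Plod1, Plod2, Lox, P4ha2, Loxl2, Loxl4, Loxl1, P4ha3 and Loxl3, at 77.5, 24.6, 23.5, 22.2, 10.3, 8, 6.49, 4.18, 3.86 and 3.22 FPKM. In TAE the ranges of P4ha1, Plod2 and Lox overlapped each other, as did those of P4ha2, Loxl2 and Loxl1 and those of Loxl4, P4ha3 and Loxl3. In HCC the ranges of Plod1, Plod2 and Lox overlapped, as did those of Loxl2 and Loxl4 and those of Loxl1, P4ha3 and Loxl3.

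Other proteins of collagen folding and processing were described from a list of 26 genes, of which 23 were tested. In edgeR 0 of them passed in either direction, and 8 were under 0.05 before adjustment. DESeq2 called 6 higher (Adamts14, Adamts2, Fkbp14, P3h3, Sparc and Tgm2). The median log2 change was 0.20, against -0.03 over all genes tested. Sparc, a collagen-binding matricellular protein, was the most abundant of those 6, at 1002, 452 and 561 FPKM in TAE replicates 1 to 3 and 199, 299 and 198 FPKM in HCC replicates 1 to 3. Its log2 change was 1.49 ± 0.34 (edgeR adjusted p = 0.0611). P3h3, a prolyl 3-hydroxylase family member, had 28.4, 14.4 and 20.3 FPKM in TAE replicates 1 to 3 and 6.98, 9.15 and 5.28 FPKM in HCC replicates 1 to 3, a log2 change of 1.52 ± 0.32 (edgeR adjusted p = 0.0516). Serpinh1, the collagen chaperone HSP47, had 465, 347 and 200 FPKM in TAE replicates 1 to 3, on both sides of the 275, 331 and 310 FPKM in HCC replicates 1 to 3. Of the same 23 genes, 15 had positive and 8 negative log2 changes, and among the negative ones were Fkbp10, which assists lysyl hydroxylation of telopeptides, at -0.22 ± 0.25, and P3h4 at -0.48 ± 0.33.

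**Figure D3:**
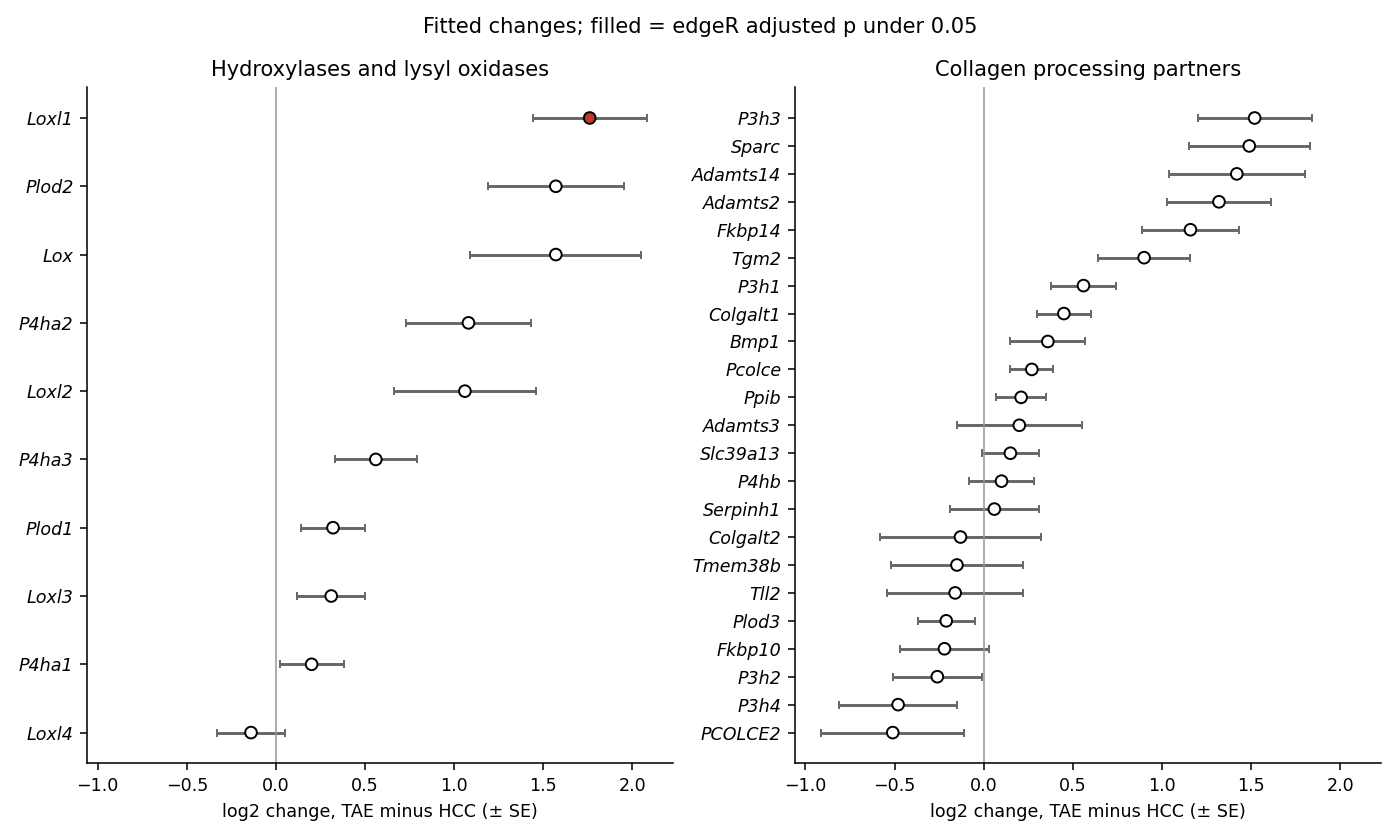
Fitted log2 change, TAE minus HCC, with its SE for the 10 enzymes (left) and 23 collagen processing partners (right), where a filled point has an edgeR adjusted p under 0.05. Loxl1 at 1.76 is the filled point, and the partners run from P3h3 at 1.52 to PCOLCE2 at -0.51.

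The collagen chains that these enzymes act on were high in the same libraries as Lox, Loxl1 and Plod2. Of 17 chains listed, 14 were tested and 13 had positive log2 changes. The same number had groups that did not overlap in FPKM, with TAE higher, as 21.9% of all genes tested did. For the chains this was not counted on TMM-scaled CPM. None passed in edgeR (0 of 14), 13 were under 0.05 before adjustment, and 11 were called higher by DESeq2. The median log2 change was 1.41. Col1a1, the alpha1 chain of type I collagen, had 967, 328 and 328 FPKM in TAE replicates 1 to 3, against 107, 220 and 122 FPKM in HCC replicates 1 to 3 (log2 change 1.79 ± 0.49, edgeR adjusted p = 0.0964). Col3a1, the chain of type III collagen, had 1468, 538 and 738 FPKM in TAE replicates 1 to 3, against 224, 302 and 199 FPKM in HCC replicates 1 to 3. TAE replicate 1 was highest for both, as it was for Lox, and HCC replicate 2 was the highest HCC library.

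**Figure D4:**
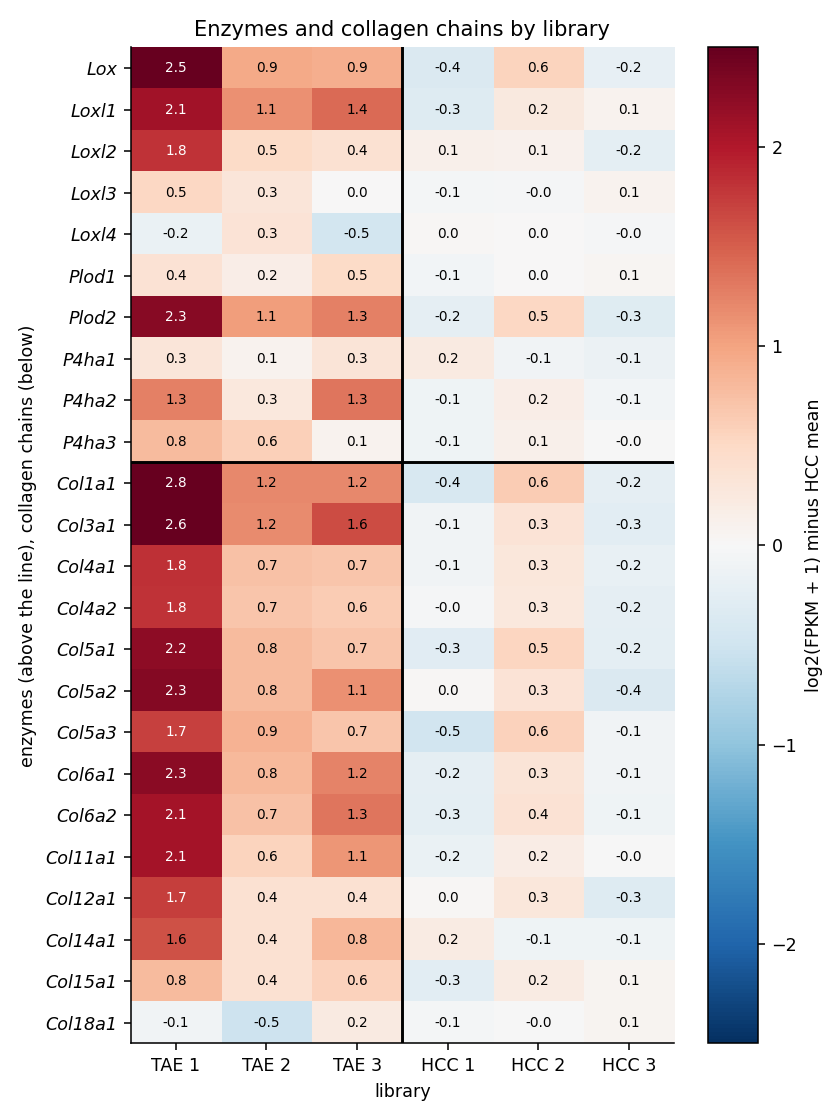
log2(FPKM + 1) minus the HCC mean of each gene (colour and printed value) in the 6 libraries, for the 10 enzymes above the line and 14 collagen chains below it. In TAE replicates 1 to 3 Lox stood at 2.48, 0.94 and 0.91 and P4ha1 at 0.31, 0.09 and 0.33.

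Set against type I collagen, Lox was lower in TAE although its level was higher. Lox had 12.8, 12.8 and 12.5 FPKM for every 100 FPKM of Col1a1 in TAE replicates 1 to 3, and 15.2, 14.5 and 15.1 in HCC replicates 1 to 3. The ratio thus varied little within a group. Its coefficient of variation was 1.21% in TAE, where Col1a1 ran from 328 to 967 FPKM. In HCC it was 2.44%, with Col1a1 at 107 to 220 FPKM. Plod2 had 11.8, 14.7 and 17 FPKM per 100 FPKM of Col1a1 in TAE replicates 1 to 3 and 18.1, 14.9 and 14.9 in HCC replicates 1 to 3, which overlapped. For P4ha1 the same ratio was 9.9, 25 and 29.6 in TAE replicates 1 to 3, against 84.7, 32.7 and 57.1 in HCC replicates 1 to 3. P4ha1 transcripts thus stood lower relative to Col1a1 in every TAE library. Col1a1 itself had a log2 change of 1.79, against a median of -0.03 over all genes tested. A gene that did not change would therefore also stand lower on this scale, so the ratio is not particular to P4ha1. Relative to Col3a1 in place of Col1a1, the ratio of Lox was 5.56 to 8.42 in TAE and 7.26 to 10.6 in HCC and overlapped, while that of P4ha1 did not.

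**Figure D5:**
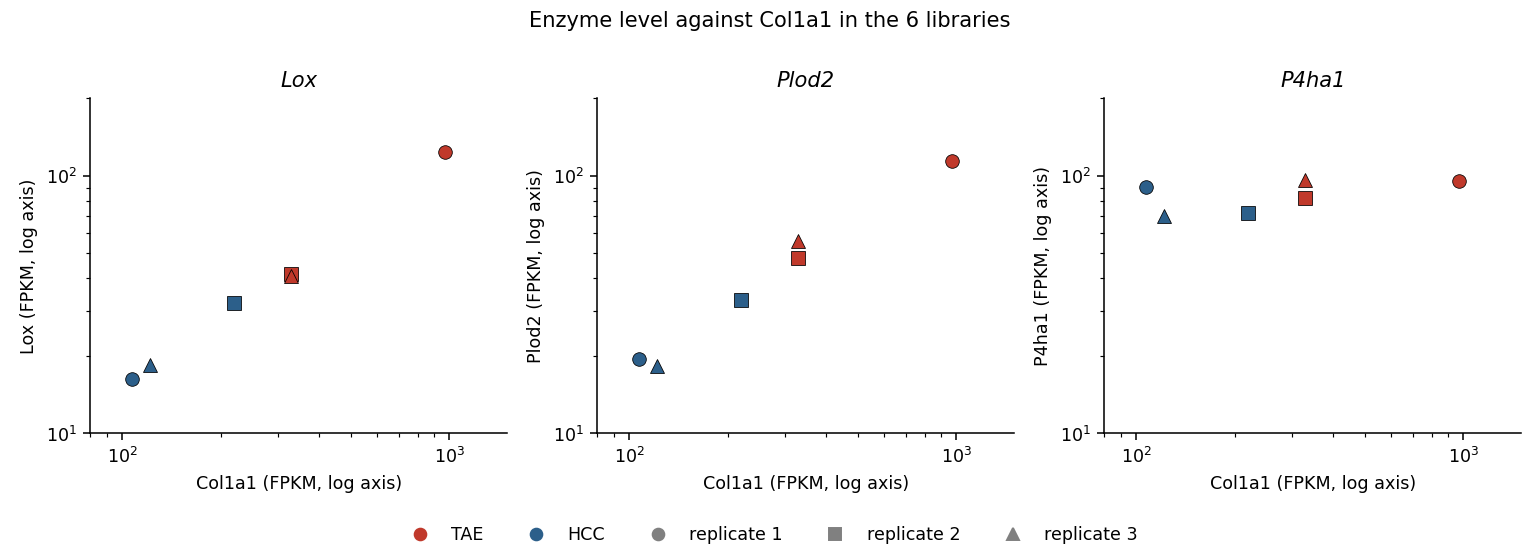
FPKM of Lox, Plod2 and P4ha1 against FPKM of Col1a1 (both axes logarithmic) in the 3 TAE and 3 HCC libraries. Lox runs along a line with Col1a1, whereas P4ha1 stays between 69.8 and 96.9 FPKM over the whole range of Col1a1.

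Likeness of pattern was measured as the root mean square difference, over the 6 libraries, of log2(FPKM + 1) relative to the HCC mean, among 125 genes of the lists with a mean of at least 1 FPKM. The nearest genes to Lox were Col5a1 (0.15), Col1a1 (0.19) and Col6a1 (0.21), all collagen chains. Sparc was nearest to Plod2 (0.09) and to Loxl1 (0.16). Loxl2 lay nearest to Col12a1 (0.11) and Col4a2 (0.17), and P4ha2 to Eln, the elastin gene (0.19). P4ha1 was nearest to Egln1, an oxygen-sensing prolyl hydroxylase (0.15). Genes that change little come out close on this measure, and the log2 changes of P4ha1 and Egln1 were 0.20 and 0.05. P4ha1 and Plod1 lay close to each other (0.17) and to Ppib, an endoplasmic reticulum prolyl isomerase (0.16 and 0.12). Nearest to Loxl4 was Plod3 (0.07).

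Elastin and its fibre components, the other substrate of lysyl oxidases and the structure that Loxl1 serves, were described from 14 genes, of which 12 were tested. Fbln1, a fibulin of elastic fibres, rose with a log2 change of 2.48 ± 0.42 (edgeR adjusted p = 0.0398). It had 11.1, 4.76 and 10.6 FPKM in TAE replicates 1 to 3, against 1.49, 2.03 and 1.16 FPKM in HCC replicates 1 to 3. The other 11 did not pass, 9 of the 12 were under 0.05 before adjustment, and DESeq2 called 8 of them higher. Log2 changes were positive for 10 of the 12, with a median of 1.11. Eln had 10.6, 6.71 and 11.5 FPKM in TAE replicates 1 to 3 and 3.24, 4.21 and 4.36 FPKM in HCC replicates 1 to 3 (log2 change 1.27 ± 0.29, edgeR adjusted p = 0.064).

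Known hypoxia genes were described from a list of 18. In edgeR 0 of 18 passed and 5 were under 0.05 before adjustment, beside 3296 of all 14499 genes tested. Those 5 were Pfkfb3, which was higher, and Pdk1, Ca9, Ldha and Pgk1, which were lower. DESeq2 called 1 higher (Pfkfb3) and 3 lower (Ca9, Ldha and Pgk1), where it called 10.2% of all genes higher and 1.99% lower. Log2 changes were positive for 6 and negative for 12, with a median of -0.14. Vegfa, the angiogenic ligand, had 73.1, 73.1 and 81.2 FPKM in TAE replicates 1 to 3 and 78.7, 84.8 and 79.6 FPKM in HCC replicates 1 to 3. Ldha, the lactate dehydrogenase A gene, was lower in every TAE library, at 591, 751 and 550 FPKM in TAE replicates 1 to 3 against 841, 897 and 944 FPKM in HCC replicates 1 to 3, without passing (log2 change -0.57 ± 0.15, edgeR adjusted p = 0.0849). Pfkfb3, a regulator of glycolytic flux, was the gene of this list with the largest positive log2 change, at 1.23 ± 0.29 (edgeR adjusted p = 0.0689). Of 10 TGF-beta ligands, receptors and targets, a pathway that raises lysyl oxidases in fibroblasts, Tgfb1 rose, at 63.4, 59.7 and 55 FPKM in TAE replicates 1 to 3 against 28.2, 32.8 and 31.5 FPKM in HCC replicates 1 to 3 (log2 change 0.89 ± 0.13, edgeR adjusted p = 0.0388). The other 9 did not pass, 4 of the 10 were under 0.05 before adjustment, DESeq2 called 2 higher, and the median was 0.52.

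Markers of stellate cells and fibroblasts, the usual source of these enzymes, had their highest sum in TAE replicate 1, as Lox, Loxl1, Loxl2 and Plod2 did. Of 14 markers tested, Lum, a matrix proteoglycan, rose (log2 change 1.78 ± 0.35, edgeR adjusted p = 0.0487), 13 did not pass and 13 of the 14 had positive log2 changes. Before adjustment 11 of them were under 0.05, and DESeq2 called 10 higher. The median was 1.19, and no marker was at 0 in every library. Their summed FPKM was 1452, 699 and 885 in TAE replicates 1 to 3, against 379, 541 and 379 in HCC replicates 1 to 3. Their part in the enzyme results was not tested, and in bulk tissue more cells of a type cannot be told apart from more RNA per cell. Relative to this sum, Loxl1 stood at 1.43, 1.47 and 1.44 FPKM per 100 FPKM of markers in TAE replicates 1 to 3, above 0.808, 0.936 and 1.16 in HCC replicates 1 to 3. Plod2 was also above HCC on that scale, at 7.83, 6.9 and 6.3 in TAE replicates 1 to 3 and 5.13, 6.08 and 4.82 in HCC replicates 1 to 3. Lox overlapped on it, and P4ha1 and Plod1 were lower in every TAE library, as an unchanged gene would be. The marker sum includes Dpt, the 1 marker with a negative log2 change. Dpt had 72.7, 42.9 and 102 FPKM in TAE replicates 1 to 3 and 89.5, 78.7 and 80.3 FPKM in HCC replicates 1 to 3. It thus made up more of every HCC sum than of any TAE sum, which lowers the HCC ratios. Ratios without Dpt were not computed.

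Macrophage markers rose for 8 of 12 genes, where 2.7% of all genes tested were called higher. Log2 changes were negative for 3, Cd163 (-0.10), Marco (-0.05) and Clec4f (-0.38). The summed FPKM was 4087 to 5730 in TAE and 1354 to 1593 in HCC, highest in TAE replicate 3, not TAE replicate 1. Lyz2 was the largest part of it, at 3534, 2790 and 3353 FPKM in TAE replicates 1 to 3 and 675, 923 and 805 FPKM in HCC replicates 1 to 3. The 12 hepatocyte markers, of which 0 passed in edgeR or DESeq2 (2 at an unadjusted edgeR p under 0.05), summed to 10368 to 30387 FPKM in TAE and 23629 to 29135 FPKM in HCC. Endothelial markers, with 0 of 9 passing in edgeR or DESeq2 (4 at an unadjusted edgeR p under 0.05), summed to 62 to 116 FPKM in TAE and 62.7 to 77.3 FPKM in HCC. Over all genes tested, 3296 of 14499 had an unadjusted edgeR p under 0.05. Of 8 cholangiocyte markers, Cftr, a chloride channel, passed, and log2 changes were positive for 7 and negative for 1. Their sum was 115 to 260 FPKM in TAE and 21.8 to 62.7 FPKM in HCC. Most of the TAE sum was Spp1, which did not pass (edgeR adjusted p = 0.0982). Spp1 had 209, 88 and 176 FPKM in TAE replicates 1 to 3 and 3.21, 40.7 and 14.5 FPKM in HCC replicates 1 to 3. The part of these cell types in the enzyme levels was not tested either.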

How the data were processed

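Poly(A) RNA from rat liver was sequenced as strand-specific paired-end libraries, per the labels' protocols, and grouped by title. The authors deposited 1 table that holds, per the file headers, raw read counts and FPKM for each gene in each library. The deposited FPKM equals the count scaled to exonic size and library total (100% of values within 0.006). The submitters' processing notes name mRatBN7.2, and the aligner, counter and strand setting are not given in the sources used, so overlapping and antisense genes cannot be separated.

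The main test was edgeR 4.0.16 (R 4.3.3, TMM, filterByExpr, quasi-likelihood, two-sided, no block) on the counts over 14499 genes, with Benjamini-Hochberg adjustment and a threshold of 0.05. SEs are the absolute log2 change divided by the square root of F. The biological coefficient of variation was 0.24, and total counts of 13448286 to 16604067 keep counting error small for most members. Ratios and shares use FPKM. Only the edgeR fit was tested on simulated counts, which were drawn with the same coefficient of variation for every gene and library. Alternatives were RLE scaling, no filter, DESeq2 1.42.0, limma 3.58.1 on log2(FPKM + 1) or log2(FPKM + 0.1) with a mean of at least 0.5 FPKM or no filter, a replicate block and leaving out each library.

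Members and lists were chosen with earlier results of these data known. Of 141 further list entries, 136 matched a symbol, and the others are not analysed here. Besides the members, the text names genes of each list that passed or were most abundant, and those nearest in pattern. It also names examples chosen after their values were seen (P3h3, Serpinh1, Plod3, Fkbp10, P3h4, Eln, Pfkfb3, Vegfa, Pdk1, Cd163, Marco, Clec4f, Dpt).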

Additional observations from a re-analysis of the deposited data

How the results depend on the processing

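With any of the 13 alternatives, Lox, Loxl1, Loxl2, Plod2 and P4ha2 kept a positive log2 change, with lowest values of 0.87, 1.45, 0.44, 1.14 and 0.79. edgeR called 437 genes, 1 of them a member. Without a count filter the counts of genes, members, processing partners and collagen chains called were 829, 2, 4 and 5, and with DESeq2 they were 1763, 4, 6 and 11. limma called 701 genes, 2 partners and 1 chain on log2(FPKM + 1), 709, 2 and 1 on log2(FPKM + 0.1), and 0 members without an FPKM filter. With libraries left out in turn, the counts ran from 0 to 3569 genes, 0 to 5 members, 0 to 9 partners and 0 to 11 chains, highest without TAE replicate 2. The cause was not tested. The count of members with TAE above HCC in every library was 6 to 8 in these subsets. That criterion is easier to meet with a library left out, and its background over all genes was not computed there. The differences in share, TAE minus HCC, ran from 14.6 to 24.3 points for Plod2, from -9.57 to -5.79 for P4ha1 and from 6.61 to 14.5 for Lox, and these subsets and the TMM-scaled CPM were chosen after seeing the data.

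With replicate number as a block, edgeR called 0 genes and 0 members, while 13.2% of genes were higher at an unadjusted p under 0.05. Equal numbers did not stand out as pairs: the correlation of deviations from the group means was 0.15, -0.24 and 0.06 for numbers 1, 2 and 3. For libraries of unequal number it was -0.23 to 0.20. These values cannot settle whether equal numbers mark a shared animal or batch, which the labels do not state. Depth limits P4ha3 most, whose lowest count in a library was 83.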

Other observations

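The steadiness of the Lox to Col1a1 ratio was compared with that of other genes after its values had been seen. Among 13019 genes tested with a mean of at least 1 FPKM and no value of 0, Lox had the smallest spread of its log2 ratio to Col1a1 within groups, with a pooled SD of 0.028. The next were Cyp1b1, a cytochrome P450 found in stromal cells, at 0.0514, and Col5a1, a chain of type V collagen, at 0.0775. Counting error of Lox alone, as 1 over the square root of its count, was 1.08% to 2.98% in a library, beside a coefficient of variation of the ratio of 1.21% in TAE and 2.44% in HCC. Plod2 ranked 21 at an SD of 0.222 and Loxl1 ranked 163 at 0.381, whereas P4ha1 ranked 6611 at 0.774 and Loxl4 ranked 9997 at 0.859. Between groups, the log2 ratio of Lox to Col1a1 was lower in TAE by a difference of -0.24, and that of Plod2 by -0.15. For P4ha1 the difference was -1.48. With Col1a1 itself at a log2 change of 1.79, a gene that did not change would also have a negative difference. These are descriptions of 6 libraries that share Col1a1 as the denominator, and no test was run on them.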
